A study of Mus musculus with 16 samples.

Results

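In a list of open chromatin regions of regulatory T cells (Treg cells), many regions lay side by side, with only a short stretch of DNA between them. A region was taken as a close neighbour of the next when the gap, from the end of the first to the start of the second, was under 500 bp. Of 75356 regions on chromosomes 1 to 19 and X, 29156 (38.7%) had at least 1 such neighbour, and 46200 had none. The whole list held 75363 regions. The regions were selected on their positions, so the gaps and the distances built from them describe the set and are given with no test.

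The list comes from ATAC-seq. In this assay a transposase inserts sequencing adapters into DNA it can reach, so reads pile up where nucleosomes or other proteins leave DNA uncovered. CD4+CD25+ Treg cells were taken from C57BL/6 mice, in 16 samples of 8 groups with 2 mice each. The groups were epididymal visceral adipose tissue, injured hindlimb muscle, colonic lamina propria in the groups called Nrp1p and Nrp1n (labels of the colon samples that are not spelled out further), and the spleen of each of the same 8 mice, in 4 spleen groups that follow the tissue they were matched with. No genetic change or drug is named for any group, all groups share the strain, and the sources used here give neither the age of the mice nor the way the muscle was injured. The deposited list stands for the series as a whole and carries no column for any sample, so the regions of a pair or run may come from different samples or separate rounds of region calling, depth is unknown, no tissue was compared with its spleen, and the cell type was not checked against marker genes.

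DNA in the nucleus is wound around histone cores, about 150 bp for each nucleosome, with short linkers between the cores. At active promoters and enhancers, nucleosomes are lost or shifted where transcription factors bind, and those next to the open stretch tend to stand at regular places. Transposase cuts fall in linkers and in nucleosome-free DNA, so a stretch of open sites interrupted by nucleosomes can appear as a row of short accessible regions. In Treg cells, as in other T cells, enhancers carry much of the tissue-specific programme. Whether the regions described here are enhancers was not tested. The list alone does not locate nucleosomes, so the distances below are compared with that size only as a scale. Neither genes nor DNA sequences are given for the regions, because no genome or annotation of their build, mm9, was used here.

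The gaps between close neighbours were mostly no longer than the DNA of 1 to 2 nucleosome cores. The 16700 pairs had a median gap of 178 bp, with 25th and 75th percentiles of 96 and 289 bp. A gap under 150 bp, too short for a whole core, separated 7111 pairs (42.6%). A gap of 150 to under 300 bp separated 5707 pairs (34.2%), and one of 300 to under 500 bp separated 3882 pairs (23.2%). The close pairs made up 22.2% of the 75336 neighbour pairs.

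No break in the numbers marked the 500 bp limit. Gaps of 450 to under 500 bp occurred 792 times, gaps of 500 to under 550 bp 679 times and gaps of 950 to under 1000 bp 352 times, against 2734 times for gaps of 100 to under 150 bp. The limit thus lies on a steady decline. At the limit, 15 pairs had a gap of 499 bp and 17 had a gap of 500 bp. Just inside lay a pair on chromosome 3 (mm9, regions 115461380 to 115461547 and 115462047 to 115462140), whose regions were 168 and 94 bp wide with centres 630 bp apart. Just outside lay a pair on chromosome 2 (30783850 to 30784000 and 30784501 to 30784652), with centres 651.5 bp apart. The other 4 pairs just inside, on chromosomes 5, 6 and 7, had centres 677.0 to 717.5 bp apart, and the other 4 just outside, on chromosomes 2, 4, 8 and 9, had centres 667.0 to 818.0 bp apart. The smallest gap was 1 bp and occurred in 32 pairs. An example on chromosome 1 joined a 352 bp region (13416917 to 13417268) to one of 130 bp (13417270 to 13417399). In the other 4 pairs named for their 1 bp gap, on chromosomes 1 and 2, the centres were 172.0 to 245.0 bp apart.

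The distance from centre to centre had its crest near 260 bp and a shoulder reaching to about 460 bp. Its median over all close pairs was 377.5 bp, its 5th and 95th percentiles were 205 and 656 bp, and its extremes were 98 and 899 bp. After smoothing over 21 bp, the most frequent distance was 259 bp. Over the 20 chromosomes the median was 377 ± 7.48 bp (SD, n = 20 chromosomes), from 361.0 bp (chromosome 12) up to 391.5 bp (chromosome 14). By this median, the chromosomes differed little in their spacing. The most frequent distance was less steady, with an SD of 34.3 bp over the chromosomes. Over all close pairs it was 239 bp after smoothing over 11 bp and 252 bp after smoothing over 41 bp.

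The place of the crest depended on the widths of the regions in the pair. In 9558 pairs, both regions were wider than 150 bp. Their median distance was 422.5 bp and their most frequent distance 411 bp, with 541 pairs from 400 to under 420 bp (bins of 20 bp, upper ends not included), 401 at 280 to 300 bp and 380 at 220 to 240 bp. Their numbers were thus nearly level from 220 to 340 bp, rose to the crest and fell after 460 bp, to 364 pairs at 480 to 500 bp. In 6674 pairs, exactly 1 region was 150 bp wide or less, and their median was 319.5 bp with a most frequent distance of 279 bp. The 468 pairs with both regions of 150 bp or less had a median of 250 bp. The gap itself moved the same way, with medians of 205.0, 147.0 and 128.0 bp in these 3 kinds of pairs.

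Among pairs of similar, fairly narrow regions, 2 crests could be told apart in the pooled numbers. There were 1467 pairs in which both regions were over 150 and up to 190 bp wide. After smoothing over 31 bp they numbered 63.5 per 10 bp at a distance of 229 bp, 25.8 at 332 bp and 40.6 at 396 bp, so that the crests lay 167 bp apart. The first crest is bounded from below, because regions on the list do not overlap, so the centres of 2 such regions are always over 150 bp apart. In windows of 40 bp, lower ends included and upper ends not, chosen after the distances had been seen, 233 of these pairs lay at 230 to 270 bp, 112 at 310 to 350 bp and 145 at 400 to 440 bp. The last window held more pairs than the one before it on only 10 of 20 chromosomes, and the difference averaged 1.65 ± 3.30 pairs (SD, n = 20). The later crest was thus not shown to recur by chromosome. These counts cannot decide it, because each chromosome held few such pairs and the pooled crest, at 396 bp, lay just below the last window.

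In the larger set of pairs with both regions wider than 150 bp, 1036 pairs lay at 400 to 440 bp and 809 at 310 to 350 bp, a ratio of 1.28. By chromosome the ratio was 1.32 ± 0.318 (SD, n = 20), between 0.80 on chromosome 19 and 2.29 on chromosome 16. It was above 1 on 17 chromosomes and below 1 on 3. These windows were placed after the same distances had been seen, so the ratio describes a rise already seen and does not support it. In this set 310 to 350 bp was not a dip, since 800 pairs lay at 230 to 270 bp. Over all pairs, narrow regions included, the same ratio was 0.938. No further crest near 600 bp stood out: the number at 590 to 630 bp over that at 540 to 580 bp was 1.03, with 8 chromosomes above 1 and 10 below.

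**Figure D1:**
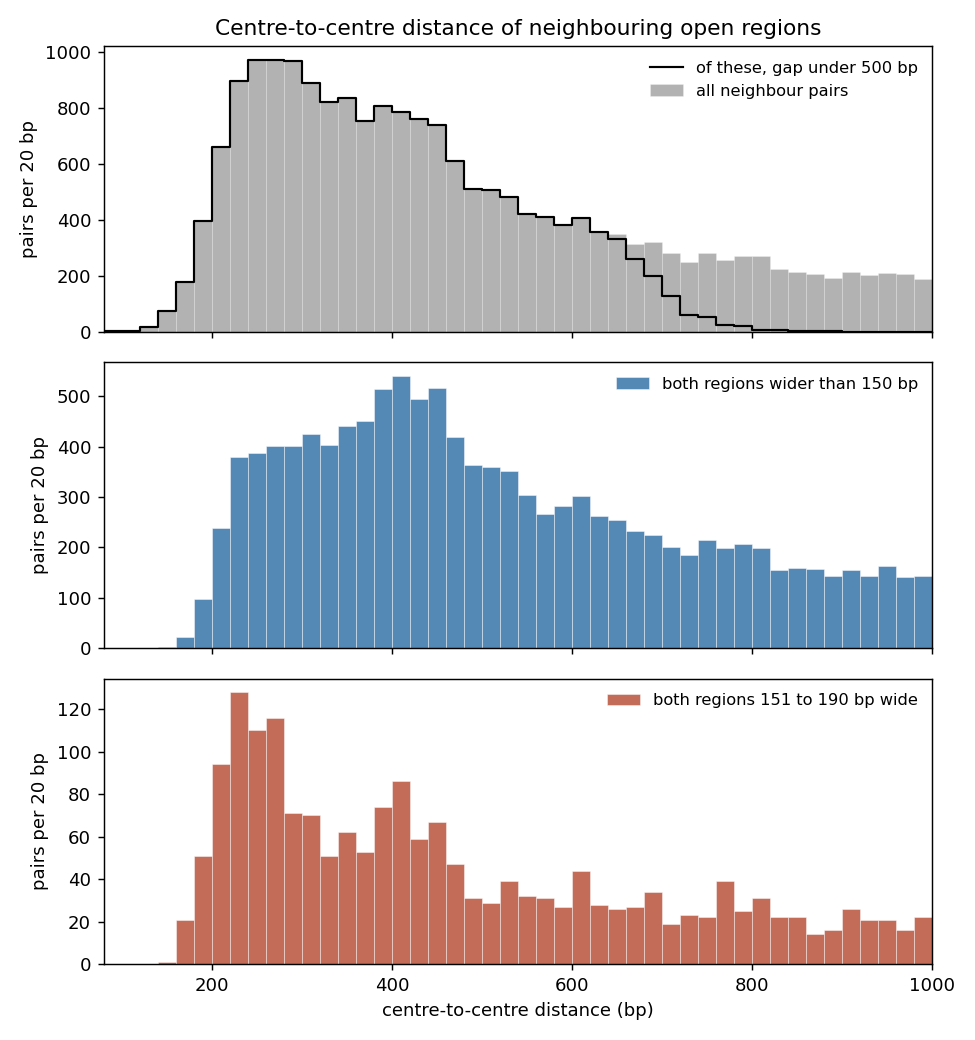
Number of neighbour pairs per 20 bp (vertical axes) by centre-to-centre distance in base pairs (horizontal axis), for all pairs (top, grey; the black line counts those with a gap under 500 bp), pairs with both regions wider than 150 bp (middle) and pairs with both regions over 150 and up to 190 bp wide (bottom). The top panel is highest near 260 bp, the middle panel at 400 to 420 bp (541 pairs), and the bottom panel has a crest at 220 to 240 bp (128 pairs) and a lower one at 400 to 420 bp (86 pairs).

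Wider pairs stood farther apart in centre distance but not steadily in gap. Pairs with both regions over 190 and up to 230 bp wide (976 pairs) had a median centre distance of 424.5 bp and a median gap of 218.0 bp. Pairs over 230 and up to 300 bp (436 pairs) had 481 bp and 223.5 bp, and the 84 pairs with both regions over 300 bp had 544 bp and 177.0 bp. For comparison, the pairs over 150 and up to 190 bp had 346.5 bp and 174.0 bp. The centre distance therefore rose with width over all 4 classes, but it takes in part of both widths, so a rise is built in. The gap, which holds no part of the widths, was highest in the middle classes.

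Close neighbours formed 12456 runs, in which each region lay within the limit of the next. Of these, 9242 runs (74.2%) were pairs, 2403 (19.3%) held 3 regions, 641 (5.15%) held 4, and 170 held 5 or more. The longest runs had 7 regions, and there were 8 of them. Runs of 3 or more numbered 3214 and took in 10672 regions, 36.6% of all regions with a close neighbour. The median span, from the first start to the last end, was 590 bp for pairs, 969 bp for runs of 3, 1309 bp for runs of 4 and 1721 bp for runs of 5.

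In the pooled list, centre distances were somewhat shorter in longer runs. The median centre distance was 388.0 bp in pairs, 369 bp in runs of 3, 356.0 bp in runs of 4, 355 bp in runs of 5 and 315.0 bp in the 33 runs of 6. It was 344.5 bp in the 8 runs of 7. The regions themselves covered 66.1% of the span in pairs, 59.6% in runs of 3, 57.3% in runs of 4 and 55.1% in runs of 5. Longer runs have more gaps per region by construction, which lowers this share.

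The most compact of the runs with 7 regions lay on chromosome 4 (mm9, 133227396 to 133229334). It spanned 1939 bp, its centre distances were 390.0, 267.0, 209.0, 329.0, 290.0 and 298.5 bp in order, and its widest region, of 298 bp, was the sixth. A run on chromosome 16 (43708447 to 43710474) spanned 2028 bp, with distances of 218.5 to 422.0 bp and 3 regions of 150 bp or less. Another on chromosome 16 (91545829 to 91548103) spanned 2275 bp and had the closest surroundings of the 8, with the nearest region outside it only 844 bp away. All 3 mixed short and long steps.

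The other 5 runs of 7 were longer. On chromosome 12 (76834359 to 76836877) the run spanned 2519 bp, with distances of 321.5 to 498.0 bp. Runs on chromosome 10 (116017623 to 116020194) and chromosome 13 (104709333 to 104711995) each held a wide region, of 477 and 490 bp, with narrower regions on both sides. A run on chromosome 3 (142281649 to 142284421) had long steps broken by short ones, with 549.0, 498.0, 278.0, 495.0, 253.0 and 497.0 bp. The longest, on chromosome 6 (29476402 to 29479292), spanned 2891 bp and was the only one of the 8 without a region of 150 bp or less. The run on chromosome 13 was also the most remote, with 33831 bp to the nearest region outside.

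Among runs of 6, the shortest span was 1302 bp, on chromosome 10 (36693980 to 36695281). Its centre distances were between 172.0 and 270.5 bp, it held 3 regions of 150 bp or less, and the nearest other region was 37945 bp away. The next, on chromosome 3 (96303507 to 96304903), spanned 1397 bp, held 4 such narrow regions and lay 910 bp from the nearest other region. Their median steps, 244.0 and 267.0 bp, were below those of all 8 runs of 7. Both were named for the shortest spans among 33 runs of 6, whose median span was 1975 bp. Short steps follow in part from that choice, so the runs of 6 and 7 are not compared like for like.

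**Figure D2:**
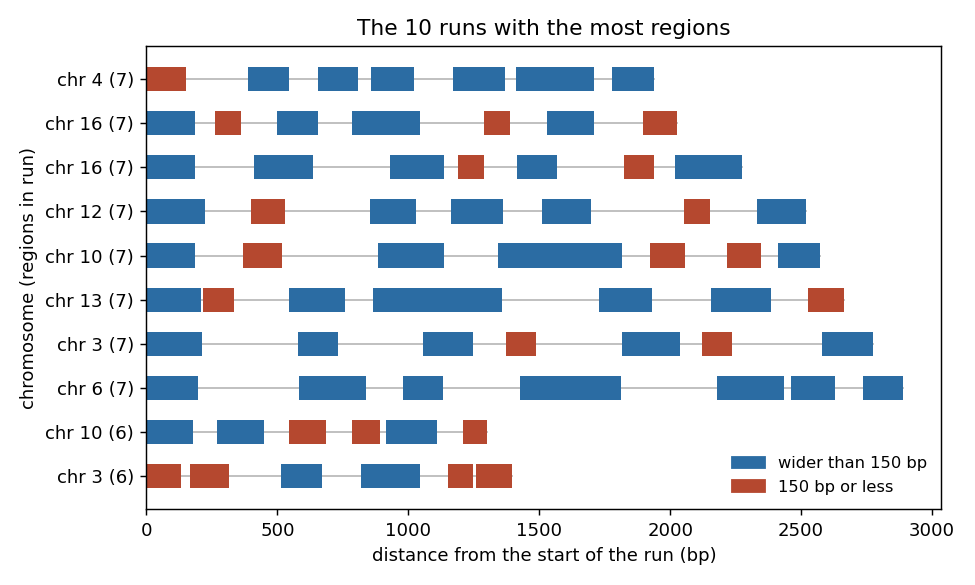
The 10 runs with the most regions, 1 per row, drawn to scale from the start of each run (horizontal axis, base pairs). Row labels give the chromosome and the number of regions. Ties went to the shorter span, so the runs of 6 drawn are the shortest of 33. Blue boxes are regions wider than 150 bp and red boxes regions of 150 bp or less; spans go from 1302 bp to 2891 bp, and only the run on chromosome 6 has no red box.

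Within a run, 1 step said little about the next. Runs of 3 or more gave 4244 pairs of consecutive centre distances, whose median absolute difference was 131.5 bp. They differed by less than 50 bp in 891 cases (21%). Across these cases, which share regions and runs, Pearson's r was 0.0561 and Spearman's rho 0.0568, and r was 0.0492 in the 1585 cases with all 3 regions wider than 150 bp. The distance from a region to the next but one had a median of 758.5 bp (25th and 75th percentiles 617 and 907 bp), and its numbers formed a single broad hump, with 320 cases at 760 to 800 bp and 298 at 720 to 760 bp. No repeating step was visible in these sums.

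**Figure D3:**
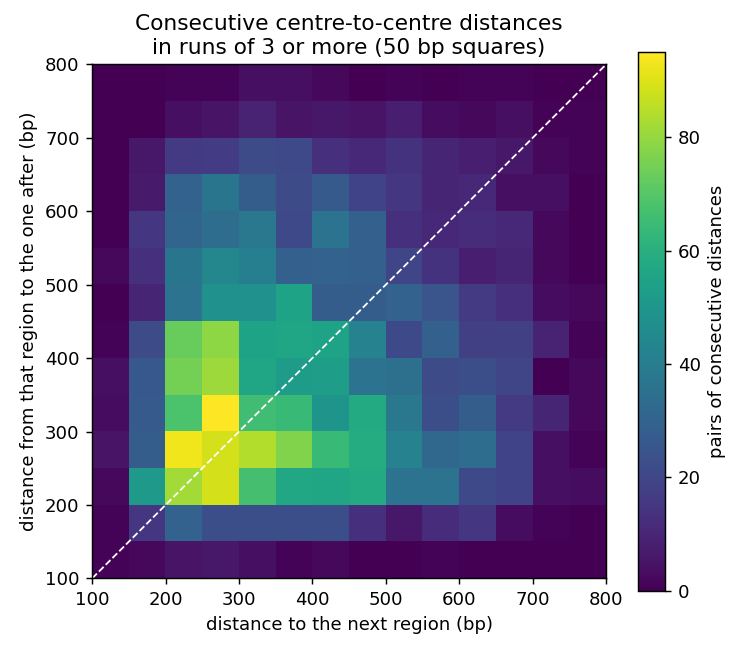
Number of cases (colour) by the centre distance to the next region (horizontal axis, base pairs) and from that region to the one after it (vertical axis), in 50 bp squares for the 4244 cases in runs of 3 or more. The dashed line marks equal distances; the cases spread widely on both sides of it, with 21% differing by less than 50 bp.

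Evenly spaced runs existed but were few. In the 811 runs of 4 or more, the range between the longest and the shortest step had a median of 238.5 bp (25th and 75th percentiles 155.5 and 338 bp), and it was under 50 bp in 21 runs (2.59%). The most even run lay on chromosome 12 (74665796 to 74666611), with 4 regions of 159, 217, 150 and 172 bp at steps of 217.0, 218.5 and 215.0 bp. The next was on chromosome 2 (29932967 to 29934130), with steps of 317.0, 319.5 and 333.5 bp. Another on chromosome 2 (74663604 to 74664490) had steps of 246.5, 261.5 and 243.0 bp. The remaining pair of the 5 most even runs lay on X (34624630 to 34625628) and on chromosome 7 (88972789 to 88973664), with mean steps of 275 and 241.5 bp. All 5 held 4 regions, and their mean steps were 217 to 323 bp. They were picked for this evenness and give no measure of how often it occurs beyond the count above.

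Narrow regions had close neighbours far more often than regions of middle width. Of the regions 94 to 100 bp wide, 1697 of 2112 (80.4%) had a close neighbour. The share was 64.0% from there up to 130 bp, 49.9% from there to under 150 bp, 38.7% at exactly 150 bp and 33.3% over 150 and up to 190 bp, the middle class. The share of the narrowest class exceeded that of the middle class on 20 of 20 chromosomes, by 47.1 ± 3.49 percentage points (SD, n = 20). Width enters the gap, which chose the regions, and how regions were joined or split could bear on both; the part of either was not tested.

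Wide regions had close neighbours somewhat more often too. The share was 36.8% over 190 and up to 300 bp and 40.9% over 300 bp, and the latter exceeded that of the middle class, over 150 and up to 190 bp, on 19 of 20 chromosomes, by 7.34 ± 4.63 points (SD, n = 20). Among regions of 400 bp or more, 321 of 754 (42.6%) had a close neighbour.

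The narrow regions were mostly of a few exact widths. Over the whole list, 12 widths from 94 to 150 bp held far more regions than the widths beside them, and together they held 10718 of the regions on these chromosomes. Of these, 5665 (52.9%) had a close neighbour, against 36.3% of regions of other widths. The share fell from 79.6% at 94 bp and 81.7% at 100 bp, through 72.0% at 108 bp and 63.3% at 116 bp, to 54.6% at 128 bp and 46.0% at 130 bp. It was 53.2% at 138 bp and 54.4% at 142 bp, but 33.1% at 134 bp and 32.4% at 140 bp, close to the share of regions just above 150 bp. Regions of these widths stood at similar gaps from their partners, with medians of 127.0 to 173.5 bp, and their partners had ordinary median widths of 193 to 204 bp.

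**Figure D4:**
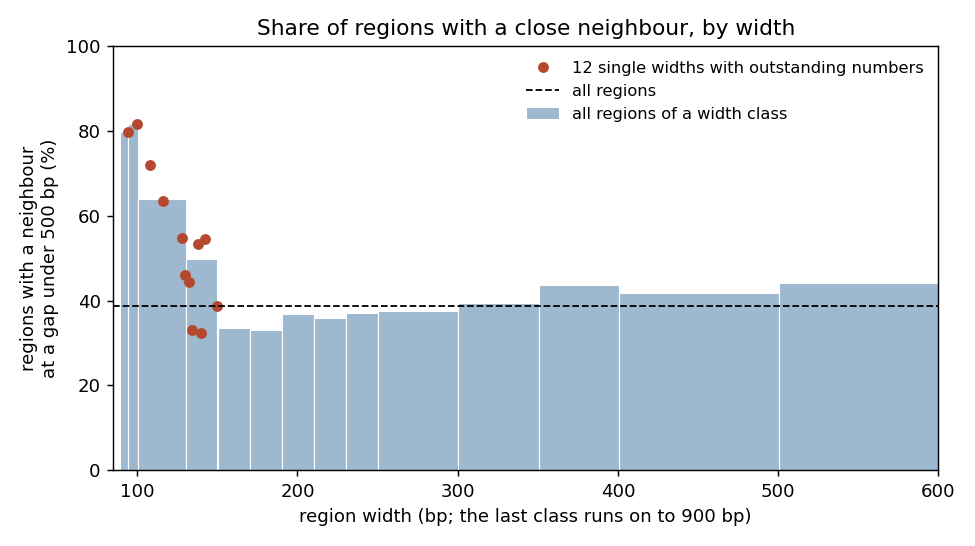
Share of regions with a neighbour at a gap under 500 bp (vertical axis, percent) by region width (horizontal axis, base pairs; bars are width classes). The dashed line is the share of all regions (38.7%), and red points are the 12 single widths that held an outstanding number of regions, from 81.7% at 100 bp to 32.4% at 140 bp.

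Close neighbours as a whole had a slightly lower median width than the rest. Their median width was 189 bp (25th and 75th percentiles 156 and 226 bp), against 193 bp (169 and 227 bp) for regions without a close neighbour. The difference of the medians was below 0 on 17 of 20 chromosomes and averaged -3.15 ± 2.26 bp (SD, n = 20). Widths of 150 bp or less made up 21.9% of close neighbours and 11.3% of the rest, and that share was higher on 20 of 20 chromosomes, by 10.5 ± 1.03 points (SD, n = 20). When regions of 150 bp or less were left out and neighbours were taken anew, which changes both groups, the close neighbours' median was 3 bp above that of the rest. Together the close neighbours covered 5.75 Mb, 37.8% of all bases in regions.

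The regions of a close pair usually differed in width, with no fixed order. In runs of 2, the wider region had a median of 219.5 bp, the narrower one 163.0 bp, and their median difference was 57 bp. The same difference was not computed for neighbours farther apart, so it is not shown to be particular to close pairs. The wider region came first along the chromosome in 8224 pairs (49.2%) and second in 8322 (49.8%), so that neither side was preferred. The widths of the regions in a pair were almost unrelated, with Pearson's r of -0.0644 over the 16700 pairs and 0.0387 over those with both regions wider than 150 bp. These pairs share regions within runs, and r is given as a description. A region of 150 bp or less was part of 42.8% of close pairs and of 24.9% of neighbour pairs farther apart.

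Inside runs, inner regions had a lower median width than end regions in the pooled list, but not steadily over the chromosomes. The 4244 regions with a close neighbour on both sides had a median width of 182 bp, and 28.8% of them were 150 bp or less. At the ends of runs of 3 or more the values were 188 bp and 22.7%, and in pairs 191 bp and 20%. In the 2348 runs of 3 with a single narrowest region, it was the middle one in 38.5%, the first in 30.6% and the last in 30.9%. The widest region, in contrast, was the middle one in 32.1%, the first in 33.0% and the last in 34.9%, close to an even share. The difference of medians between inner and end regions was -5.1 ± 8.31 bp over the chromosomes (SD, n = 20; lower on 14 and higher on 5), so it was within the spread between chromosomes. The share of widths of 150 bp or less also rose with the length of the run, from 20% in pairs to 23.9% in runs of 3, 26.8% in runs of 4, 28.8% in runs of 5 and 35.4% in runs of 6, but it was 26.8% in the 56 regions of the runs of 7.

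The gap to the nearest region outside is given as a description, since gaps formed the runs. Its median was 4036 bp for regions without a close neighbour, 4236 bp for pairs, 4996 bp for runs of 3, 5703 bp for runs of 4 and 5950 bp for runs of 5. All of these gaps are at least 500 bp by the choice of regions. On X the median was 13671 bp for runs of 3 or more and 5878 bp for regions without a close neighbour.

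Close neighbours were found at a similar rate on all autosomes. Their share averaged 38.8% ± 1.3 (SD, n = 19 autosomes), from 36.1% on chromosome 1 to 41.2% on chromosome 3. Chromosome 10 followed with 41% and chromosome 17 with 40.6%. The X chromosome had the lowest share, 34.8% (596 of 1711 regions), which was below all 19 autosomes and 3.03 autosome SDs under their mean. The share of close neighbours that stood in runs of 3 or more was highest on chromosome 3, at 41.7%, and 36.6% ± 1.8 on the autosomes, with X at 34.9% inside their range. The median centre distance on X, 374.0 bp, was between those of chromosome 12 and chromosome 14. X had 3.58 close neighbours per Mb against 11.7 ± 2.23 on the autosomes, and 10.3 regions of any kind per Mb against 30.1 ± 5.38. How far its lower density sets its lower share was not tested.

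**Figure D5:**
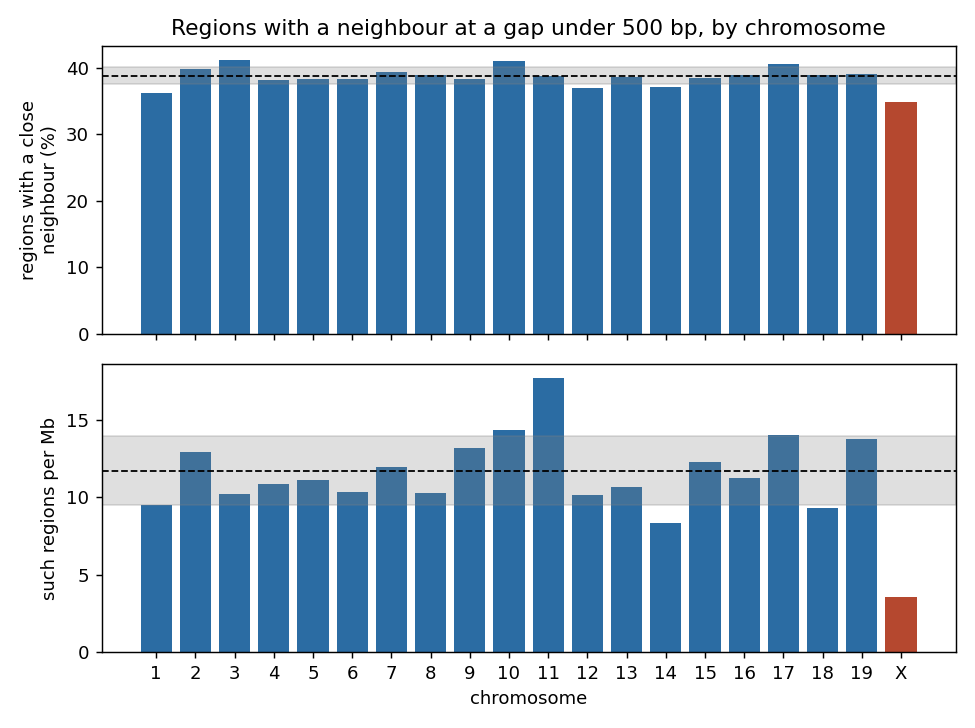
Share of regions with a neighbour at a gap under 500 bp (top, percent) and number of such regions per Mb (bottom) on each chromosome (horizontal axis). Dashed lines are the means of the 19 autosomes (38.8% and 11.7 per Mb), grey bands 1 SD on both sides, and X, in red, stands at 34.8% and 3.58 per Mb.

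Across 1 Mb bins, the share of close neighbours was higher in the densest bins than in the sparsest, though it did not rise at every step. Close neighbours themselves count towards the density of their bin, so a rise is built in to an extent that was not tested. It was 23.9% in bins of 1 to 4 regions (527 regions), 34.5% in bins of 5 to 9, 36.6% at 10 to 19, 36.4% at 20 to 39, 39.0% at 40 to 79 and 40.8% in the 210 bins of 80 or more. The tenth of bins with the most regions held 34.7% of close neighbours and 31.9% of the rest, 2.80 points more. With bins of 100 kb that difference was 10.4 points. Bins with many close neighbours were also named, and a high share in them follows in part from that choice. The bin with the most close neighbours, on chromosome 10 (mm9, 67000001 to 68000000), had 73 among 127 regions (57.5%), and the next, on chromosome 7 (134000001 to 135000000), had 72 among 131 (55%). The third, also on chromosome 10 (80000001 to 81000000), had 70 among 187 (37.4%), close to the share of the whole list. In clusters of 20 or more regions linked at gaps under 12.5 kb, 2394 of 5539 regions (43.2%) had a close neighbour, which is 8.21% of all close neighbours. Every region in such a cluster has a neighbour within 12.5 kb by definition, while the 9696 regions without one held 0 close neighbours. The 43.2% is therefore not like for like with the 38.7% over all regions and shows no enrichment.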

How the data were processed

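ATAC-seq regions of 16 samples from 8 mice were analysed as 1 list. The values are start and end positions in base pairs that the authors deposited for the whole series, per the file header, with no score, count or sample column. HOMER 4.6, Picard 1.130, SAMtools 1.3, Bowtie2 2.2.4, cutadapt 1.8.3 and the build mm9 appear in the submitters' processing notes, without roles. The sources used here do not give the peak caller's settings or how regions of the samples were joined or split, which can set gaps and widths. Printed positions are 1-based, with deposited starts raised by 1.

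Regions of chromosomes 1 to 19 and X were sorted by start. Gap (next start minus end), centre distance and width (end minus start) were computed from the positions as deposited, in Python 3.11.15 with numpy 2.4.6 and pandas 2.3.3. A width was outstanding where it held over 5 times the median number at widths within 8 bp (median taken as at least 10). Chromosomes served as the unit of spread, and no test was run, since the regions are not replicates and no value per mouse was used. Named runs were the 10 with the most regions, with ties going to the shorter span, and the 5 most even runs of 4 or more. Other named items were 5 pairs at each side of the limit and at the smallest gap, and the 3 bins with the most members. Positions of the pairs are printed only for some. The set, lists and rules were chosen with earlier results of these data known. The code was tested on simulated chromosomes, and all planted runs were recovered. No planted gap lay near the 500 bp limit, so the check covers the counting of well-separated runs only. The gene table supplied is of another build and was not used.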

Additional observations from a re-analysis of the deposited data

Results flagged for a closer look

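Chromosome Y was outside the chromosomes analysed. Of its 7 regions, 6 had a neighbour at a gap under 500 bp (38.7% of regions on the chromosomes analysed had one). They formed 3 pairs, with gaps of 125, 274 and 437 bp and centre distances of 290.0, 477.0 and 694.0 bp. The list does not show which samples they came from.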

How the results depend on the processing

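No paired analysis was possible because the deposited positions carry no value for any sample, and no replicate could be left out for the same reason. Of 95 recomputed values, 6 reversed, by a change of sign or, for ratios of windows, by crossing 1. Of the others, 57 stayed within 1 SD of the chromosomes (counts: within 1.5 times) and 32 moved. Reversals were set apart first, whatever their size, and those of the ratio at 590 to 630 bp lay within its SD of 0.158. A gap limit of 300 bp gave a share of 30.6%, 2087 runs of 3 or more, a median centre distance of 329.0 bp, 649 bp to the next region but one, a step difference of 88.5 bp, 12.2 points more narrow regions and a width difference in pairs of 60 bp. A limit of 1000 bp gave 48.6%, 441.0 bp, 925 bp, 210.5 bp, 9.10 points, 53 bp, a width difference from the rest of -1 bp and 4.53 points more in the densest bins (2.80 as reported; 10.4 with bins of 100 kb). Keeping only regions wider than 150 bp gave 18337 regions (28.8%), 10039 pairs, 1476 runs of 3 or more, a median of 431.0 bp, a most frequent distance of 412 bp, 852.5 bp to the next but one, 39 bp in pairs, and reversed the width difference to 3 bp. Leaving out the 12 outstanding widths gave 30.4%, 10811 pairs, 1675 runs of 3 or more, 420.5 bp, 420 bp, 840.0 bp, 42 bp, 3.21 points and a reversed width difference of 1 bp. Fewer regions enter by construction in both. The ratio of 400 to 440 over 310 to 350 bp, an alternative set chosen after seeing the data, reversed to 0.938 over all pairs; that of 590 to 630 over 540 to 580 bp reversed to 0.957 over all pairs, 0.930 from start to start and 0.951 from end to end. The X share stayed at 0.897 to 0.927 of the autosome mean in all 4 alternatives run. The depth is unknown, so a gap is DNA where no region was called, not DNA shown to be closed.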

Other observations

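Pairs of regions with the same outstanding width were counted by their distance, after such pairs had been noticed in the data. Among neighbours with centres under 1000 bp apart, 18 pairs had equal outstanding widths other than 150 bp, and 0 of them stood closer than 2 widths; the closest was 265.0 bp apart, and the smallest ratio of distance to width was 2.22. Pairs of unequal outstanding widths, neither of them 150 bp, numbered 174, and 65 (37.4%) stood closer than 2 widths of the narrower region, down to 98.0 bp. At 150 bp, which made up most of the equal pairs, 45 of 84 (53.6%) were closer than 2 widths, down to 153.0 bp. Neither the peak caller's settings nor a cause in the chromatin was tested.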
